A study of Homo sapiens with 6 samples.

Results

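The MHC class I antigen presentation genes described here are HLA-B, HLA-C, HLA-E, B2M, TAP1, TAP2, TAPBP, PSMB8 and PSMB9. They were taken as a named list, by matching the Ensembl identifiers in the expression table to gene symbols, and 9 of 9 were found among the 10487 genes of the table. No expression value entered this matching, but the list was drawn up with earlier results of these data known. Counts of these genes set beside shares of all genes are therefore descriptions. MDAMB468 is an established line of human breast cancer cells of the triple negative type. RNA came from 3 biological replicates of control MDAMB468 cells, labelled WT and given no treatment, and from 3 of MDAMB468-VHP-IGFBP2 cells, which were also untreated and are labelled as IGFBP2 overexpression. The latter express a Cas9 that cannot cut, joined to domains that activate transcription (VHP), stably delivered by lentivirus under blasticidin selection, together with a guide RNA directed to IGFBP2. Whether the control cells carried the activator without the guide is not given in the sources used here, so any effect of IGFBP2 cannot be told apart from an effect of the activator or of selection. Libraries were made with a 3′ method (QuantSeq), which reads the end of each transcript, so that each gene's value reflects its number of reads and not its length.

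MHC class I molecules show peptides from inside the cell to CD8 T cells. Proteins are cut by the proteasome, in which inducible subunits such as PSMB8 and PSMB9 can take the place of constitutive ones. The peptides are carried into the endoplasmic reticulum by the TAP1 and TAP2 transporter, and are loaded with the help of tapasin (TAPBP) onto a heavy chain (HLA-B, HLA-C or HLA-E) paired with β2-microglobulin (B2M). These genes are known to be induced by interferon and, for several of them, by NF-kB and the coactivator NLRC5, and low class I levels are a known route of immune escape in tumours.

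Of the 9 genes, 8 lie on chromosome 6 of GRCh38 within or beside the MHC region, and B2M lies on chromosome 15. The coordinates that follow are those of GENCODE 44. HLA-B (ENSG00000234745) spans chr6:31353872-31367067 and HLA-C (ENSG00000204525) chr6:31268749-31272130, both on the minus strand, and HLA-E (ENSG00000204592) spans chr6:30489509-30494194 on the plus strand. TAP2 (chr6:32821833-32838739, minus), PSMB8 (chr6:32840717-32844679, minus), TAP1 (chr6:32845209-32853816, minus) and PSMB9 (chr6:32844136-32859851, plus) are neighbours in a stretch of 38.02 kb. TAPBP (chr6:33299694-33314284, minus) is farther along the chromosome. B2M (ENSG00000166710) spans chr15:44711358-44718851 on the plus strand. In this annotation the span of PSMB9 overlaps those of TAP1 and PSMB8 on the opposite strand and that of PSMB8-AS1, an antisense gene of PSMB8, on the same strand. The library kit keeps strand, but the strand setting used in counting is not given in the sources used here, so reads where genes of opposite strands overlap cannot be assigned with certainty. Strand does not separate PSMB9 from PSMB8-AS1, so reads in their overlap are uncertain under any setting. HLA-B and HLA-C are highly similar and polymorphic, so the division of reads between them is also uncertain.

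Promoter letters are shown for 5 of the genes because the results turn on these genes, the 3 with the smallest p-values (PSMB9, B2M and TAP1), HLA-B with the widest spread among control libraries, and TAPBP with the smallest difference. RefSeq windows were matched for 8 of the 9 genes, in 10 windows, since TAP1 and PSMB8 each have more than a single start, and no window was matched for HLA-E. Each line gives the 250 bases before the RefSeq transcription start, read 5′ to 3′ on the gene's strand, from the GRCh38.p14 reference sequence and not from the alleles of MDAMB468 cells. The windows are chr15:44711267-44711516 (plus) for B2M, chr6:31357180-31357429 (minus) for HLA-B, chr6:32853705-32853954 (minus) for the outer start of TAP1, chr6:32853942-32854191 (plus) for PSMB9 and chr6:33314079-33314328 (minus) for TAPBP. Capitals mark letter matches, on either strand, to an interferon-stimulated response element (GAAANNGAAA), a gamma-activated site (TTCNNNGAA), an NF-kB site (GGGANTTCC), the core of a cyclic AMP response element (CRE; TGACG) or a CCAAT box (CCAAT).
B2M: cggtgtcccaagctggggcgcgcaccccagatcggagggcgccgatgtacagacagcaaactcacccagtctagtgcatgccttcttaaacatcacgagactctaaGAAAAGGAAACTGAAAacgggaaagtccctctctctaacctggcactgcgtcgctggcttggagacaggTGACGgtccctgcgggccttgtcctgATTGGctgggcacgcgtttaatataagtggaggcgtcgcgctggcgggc
HLA-B: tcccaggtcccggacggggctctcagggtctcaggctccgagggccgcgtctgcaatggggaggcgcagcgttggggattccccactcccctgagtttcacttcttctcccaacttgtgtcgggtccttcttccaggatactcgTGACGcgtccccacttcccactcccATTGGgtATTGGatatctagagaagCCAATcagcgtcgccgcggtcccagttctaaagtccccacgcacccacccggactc
TAP1: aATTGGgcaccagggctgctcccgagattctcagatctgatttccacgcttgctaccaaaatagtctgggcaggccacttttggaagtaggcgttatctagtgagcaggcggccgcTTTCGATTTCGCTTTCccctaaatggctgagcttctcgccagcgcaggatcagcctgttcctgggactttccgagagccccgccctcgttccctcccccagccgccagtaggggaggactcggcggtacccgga
PSMB9: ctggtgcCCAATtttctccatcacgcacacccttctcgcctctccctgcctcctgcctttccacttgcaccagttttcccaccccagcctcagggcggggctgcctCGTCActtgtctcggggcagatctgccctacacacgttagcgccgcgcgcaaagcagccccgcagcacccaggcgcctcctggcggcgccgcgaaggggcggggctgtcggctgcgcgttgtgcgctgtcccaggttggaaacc
TAPBP: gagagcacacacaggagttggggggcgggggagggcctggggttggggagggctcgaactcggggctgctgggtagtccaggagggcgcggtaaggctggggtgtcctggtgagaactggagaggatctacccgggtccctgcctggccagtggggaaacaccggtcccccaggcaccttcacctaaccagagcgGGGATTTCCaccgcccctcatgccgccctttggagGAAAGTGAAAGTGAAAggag
In B2M, 2 overlapping response element matches run from -144 to -129, and in TAP1 2 overlapping matches run from -134 to -119, counted from -1 as the last base before the start. TAPBP has 2 overlapping matches from -20 to -5 and an NF-kB match from -55 to -47. HLA-B has a CRE core at -106 and CCAAT boxes at -81, -74 and -56. Of the capitalised motifs, PSMB9 has a CRE core at -144 and a CCAAT box at -243 within its window of 250 bases. The TAP1 and PSMB9 starts face away from each other and are 488 bp apart, so that their windows overlap by a few bases and share a CCAAT match. The response element matches of TAP1 lie between these starts, outside the PSMB9 window.

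The interferon-stimulated response element was matched in 4 of the 8 genes (B2M, TAP1, TAP2 and TAPBP), and in 3.02% of all 35116 RefSeq windows of the same length. Genes are counted if any of their windows has a match, while the shares are per window, so the units differ for TAP1 and PSMB8, which have more than a single window. The gamma-activated site was matched in TAP1 and PSMB8, against 6.57% of all windows, and the NF-kB site in TAPBP, against 1.59%. The gamma-activated site of TAP1 is at -189 from its inner start, whose window is not printed above. The CRE core was matched in 6 genes (B2M, HLA-B, HLA-C, PSMB8, PSMB9 and TAP2), against 21.2%, and the CCAAT box in 5 (B2M, HLA-B, HLA-C, PSMB9 and TAP1), against 32.01%. A further motif, the GC box (GGGCGG), was matched in 5 genes and in 42.6% of all windows and is not capitalised. A match describes letters and not a bound site. The patterns are fixed, so a site with other letters goes unmarked, and a gene without a match may still hold such a site. The HLA-B and TAP1 windows, for instance, each hold a stretch that differs from the NF-kB letters by a single base. Whether the matches go with the expression values given below was not tested.

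**Figure D1:**
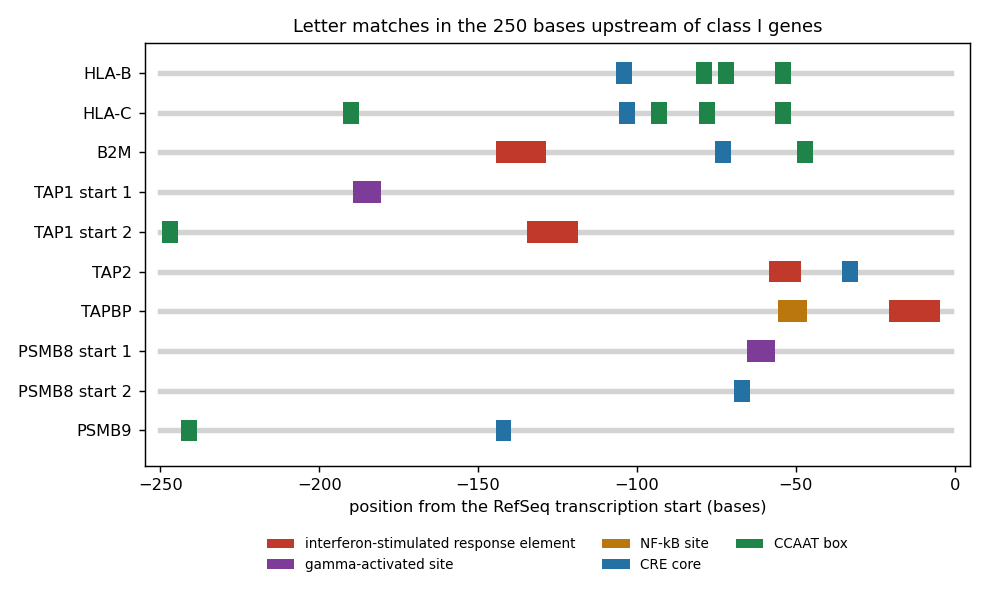
Positions of letter matches in the 250 bases before each RefSeq start (x axis, bases from the start), with 1 row per window and 1 colour per motif. Response element matches sit in the windows of B2M, the outer start of TAP1, TAP2 and TAPBP, and CCAAT boxes in those of HLA-B, HLA-C, B2M, TAP1 and PSMB9.

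The listed genes held 2497353 to 4579587 reads per library, and each value of a class I gene rested on 29 to 2769 reads, with PSMB9 and TAP1 the lowest. IGFBP2, the activated gene, had values of 93.5, 87.3 and 136 in the control libraries and of 566, 1176 and 498 in those of IGFBP2 overexpression, in replicate order and in CPM, the count of a gene scaled to a common library size (log2 fold change 2.73, standard error 0.33, limma adjusted p = 0.0148). The epithelial markers of the line were found (6 of 6 listed), the listed leukocyte and endothelial markers were not among the genes of the table (0 of 6 and 0 of 3), and of 4 fibroblast markers COL1A1 was present at 9.36 to 27.5 CPM. Control replicate 2 stood apart. Of 39 measured genes of the interferon pathway and response, 28 (71.8%) were highest in it, against 20.7% of all genes, and their levels summed to 4075 CPM there, to 1322 (replicate 1) and 1874 CPM (replicate 3) in the other controls, and to 1693, 1705 and 2331 CPM in the IGFBP2 overexpression libraries. Class I results are therefore given with and without this library.

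All 9 class I genes had a higher mean in IGFBP2 overexpression cells than in control cells, from 1.09-fold for TAPBP to 2.84-fold for PSMB9, and 0 of 9 passed the threshold of the test. The median log2 fold change of the 9 genes was 0.65, and that of all 10487 genes was 9.8e-05. The folds are ratios of mean CPM, while log2 fold changes are differences of mean log2(CPM + 1) values, so these measures can differ. The test was limma with Benjamini-Hochberg adjustment over all genes at an adjusted p of 0.05. It called 66 genes (0.629% of all), of which 45 (0.429%) were higher. The paper, which used edgeR at a false discovery rate under 0.05, reports many more transcripts as changed by IGFBP2 overexpression. Its calls for the 9 genes were not compared here. The count of 0 applies only to limma as fitted here, with all 6 libraries and no mean-variance trend. At an unadjusted p under 0.05, 5 of the 9 genes were higher (PSMB9, B2M, TAP1, HLA-B and TAP2), against 6.88% of all genes. In 6 of the 9 (HLA-B, HLA-E, B2M, TAP1, TAP2 and PSMB9) each IGFBP2 overexpression library was above each control library, which held for 9.43% of all genes. In these bulk samples, fewer cells expressing a gene and less RNA per cell cannot be told apart.

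Without control replicate 2, 3 of the 9 genes passed as higher in IGFBP2 overexpression cells (HLA-B, B2M and PSMB9), against 0.524% of all genes. The median log2 fold change of the 9 was then 0.92. Control replicate 2 was the highest control for each of the 9 except TAP2, so leaving it out raises their fold changes by arithmetic. These values show how far the results rest on that library and are no separate evidence of a difference. With limma voom on the recovered reads B2M and PSMB9 passed, against 0.858% of all genes called higher, and the same genes passed with a mean-variance trend, against 0.896%. The number of these genes that passed thus depended on a single control library and on how the variance was modelled.

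**Figure D2:**
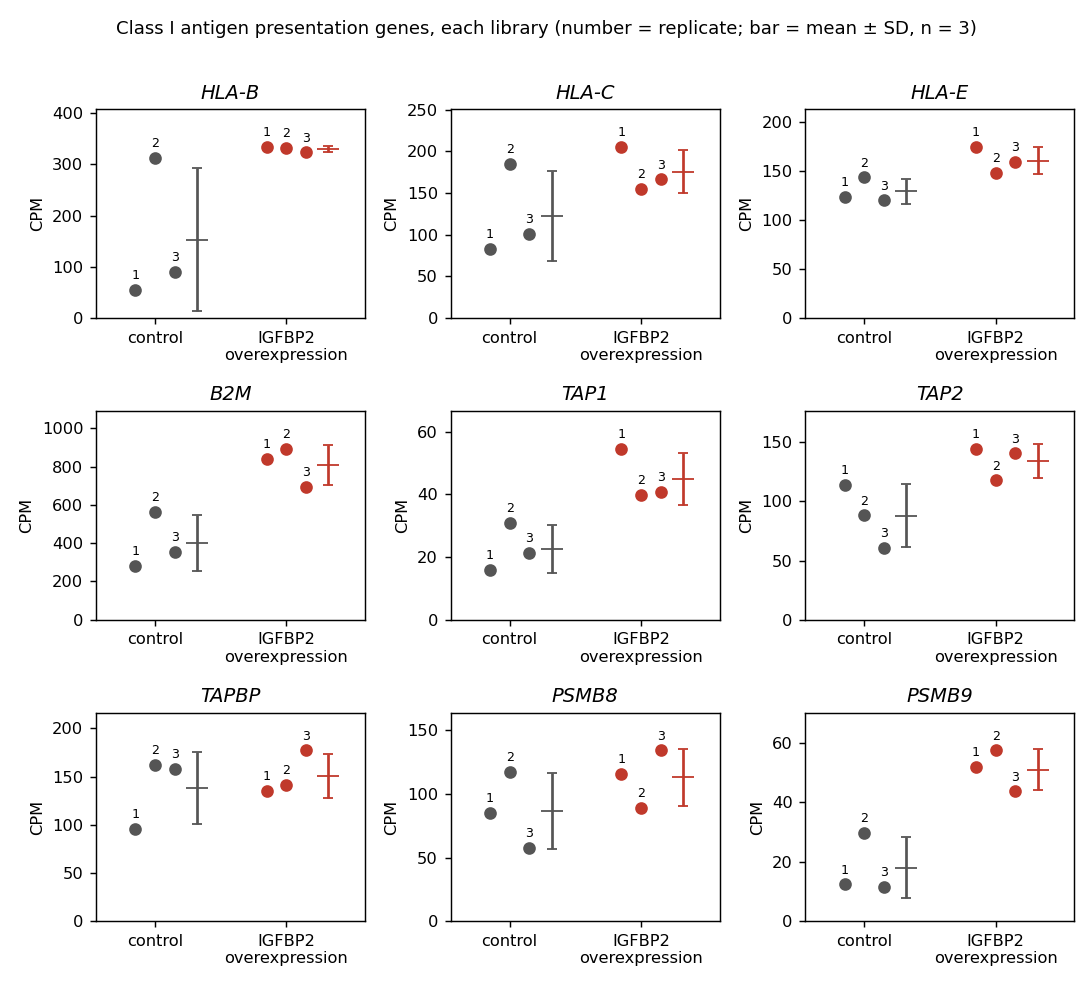
Expression of each of the 9 genes in CPM (y axis, from 0, with its own scale per gene) in each library, with the replicate number above each point and bars giving the mean ± SD of 3 libraries. IGFBP2 overexpression libraries lie above all control libraries for HLA-B, HLA-E, B2M, TAP1, TAP2 and PSMB9, and control replicate 2 lies near them for HLA-B.

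The heavy chains bind the peptide. HLA-B, a classical heavy chain recognised by T cells, was at 54.8, 313 and 90.6 CPM in control and at 334, 331 and 324 CPM in IGFBP2 overexpression libraries 1, 2 and 3. The 3 IGFBP2 overexpression libraries were nearly equal, while the controls split into 2 low libraries and 1, replicate 2, close to the IGFBP2 overexpression level. The mean was 153 ± 140 CPM in control and 330 ± 5.48 CPM in IGFBP2 overexpression cells (SD, n = 3 each), a log2 fold change of 1.498 (standard error 0.52, limma adjusted p = 0.283). Without control replicate 2 the log2 fold change of HLA-B was 2.21 (limma adjusted p = 0.0154). The ratio of the IGFBP2 overexpression mean to the mean of control replicates 1 and 3 was 4.54, and to control replicate 2 it was 1.05.

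HLA-C, the other classical heavy chain described here and also a ligand of killer cell immunoglobulin-like receptors on natural killer cells, was at 83.0, 184 and 101 CPM in control replicates 1, 2 and 3. In IGFBP2 overexpression replicates 1, 2 and 3 it was at 205, 155 and 166 CPM. The groups overlapped, because control replicate 2 was above IGFBP2 overexpression replicates 2 and 3. Its log2 fold change was 0.59 (standard error 0.30, limma adjusted p = 0.444), and 0.92 (limma adjusted p = 0.140) without control replicate 2.

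HLA-E, a nonclassical heavy chain that presents leader peptides of other class I molecules to receptors on natural killer cells, was at 124, 144 and 120 CPM in control and at 175, 148 and 160 CPM in IGFBP2 overexpression libraries 1, 2 and 3. The groups did not overlap, but the lowest IGFBP2 overexpression library was close to the highest control library. HLA-E had the smallest control spread of the 3 heavy chains, with means of 129 ± 12.5 and 161 ± 13.4 CPM (SD, n = 3 each). The log2 fold change was 0.31 (95% interval -0.096 to 0.72, limma adjusted p = 0.508), and 0.39 without control replicate 2 (limma adjusted p = 0.446).

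B2M, the invariant light chain that every class I heavy chain needs to reach the cell surface, was at 281, 563 and 353 CPM in control and at 842, 894 and 694 CPM in IGFBP2 overexpression libraries 1, 2 and 3. The groups did not overlap, and control replicate 2 was again the highest control. The mean was 399 ± 146 CPM in control and 810 ± 104 CPM in IGFBP2 overexpression cells (SD, n = 3 each), a ratio of 2.03. The log2 fold change of B2M was 1.07 (standard error 0.27, 95% interval 0.47 to 1.68), with an adjusted p of 0.146 from limma, 0.0239 from limma voom and 0.0491 from limma without control replicate 2. Against control replicate 2 alone, the IGFBP2 overexpression mean of B2M was 1.44 times as high.

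The transporter and its partner move peptides to the heavy chain. TAP1, the first subunit of the transporter, was at 15.8, 30.9 and 21.4 CPM in control and at 54.6, 39.7 and 40.7 CPM in IGFBP2 overexpression libraries 1, 2 and 3. Its groups did not overlap, with means of 22.7 ± 7.63 and 45.004 ± 8.31 CPM (SD, n = 3 each). The log2 fold change of TAP1 was 0.99 (standard error 0.26, limma adjusted p = 0.169), and 1.23 without control replicate 2 (limma adjusted p = 0.0917).

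TAP2, the second subunit of the transporter, was at 114, 88.2 and 61.1 CPM in control and at 145, 118 and 141 CPM in IGFBP2 overexpression libraries 1, 2 and 3. Control replicate 1, not replicate 2, was the highest control, so TAP2 was ordered differently from its partner TAP1 among the control libraries. Its log2 fold change was 0.65 (standard error 0.25, limma adjusted p = 0.315) and nearly the same without control replicate 2, at 0.67 (limma adjusted p = 0.388). The IGFBP2 overexpression mean was 1.52 times control replicate 2 and 1.53 times the mean of the other controls.

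TAPBP, which encodes tapasin and bridges the transporter and the heavy chain, was at 95.5, 162 and 158 CPM in control and at 135, 141 and 177 CPM in IGFBP2 overexpression libraries 1, 2 and 3. The groups overlapped widely, with 5 of 9 pairs of libraries higher in IGFBP2 overexpression. The log2 fold change was 0.16 (95% interval -0.41 to 0.72, limma adjusted p = 0.845), and its sign depended on control replicate 1, without which it was -0.090. Without control replicate 2 the log2 fold change of TAPBP was 0.29 (limma adjusted p = 0.711). TAPBP was thus the gene of the 9 with the smallest difference.

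PSMB9 and PSMB8 are inducible catalytic subunits of the immunoproteasome, the form of the proteasome that favours peptides suited to class I. PSMB9 was at 12.4, 29.8 and 11.7 CPM in control and at 51.8, 57.5 and 43.7 CPM in IGFBP2 overexpression libraries 1, 2 and 3. The lowest IGFBP2 overexpression library was above the highest control library, and PSMB9 had the largest fold change and the smallest p of the 9 genes. The mean was 18.0 ± 10.2 CPM in control and 51.0 ± 6.92 CPM in IGFBP2 overexpression cells (SD, n = 3 each). The log2 fold change of PSMB9 was 1.57 (standard error 0.33, 95% interval 0.82 to 2.32), with an adjusted p of 0.0933 from limma, 0.0159 from limma voom and 0.0125 from limma without control replicate 2. PSMB9 had 29 to 178 reads per library, so its single values carry a larger counting error than those of B2M. PSMB8-AS1, which it overlaps on the same strand, was at 3.11, 12.5 and 6.47 CPM in control and at 7.80, 3.87 and 12.8 CPM in IGFBP2 overexpression libraries, an order unlike that of PSMB9.

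PSMB8 was at 85.0, 117 and 57.8 CPM in control and at 116, 89.4 and 134 CPM in IGFBP2 overexpression libraries 1, 2 and 3. The groups overlapped, since control replicate 2 was above IGFBP2 overexpression replicates 1 and 2. The log2 fold change of PSMB8 was 0.42 (standard error 0.28, limma adjusted p = 0.580), and 0.66 without control replicate 2 (limma adjusted p = 0.344). PSMB8 and PSMB9 are close neighbours in the genome, and the groups of PSMB9 were separate where those of PSMB8 were not, but the difference between their fold changes was not tested.

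Each inducible subunit was also set against the constitutive subunit whose place it takes. The ratios printed are of CPM values and do not depend on how the library was scaled. The log2 ratios that were tested are of CPM + 1, so they depend in part on the scaling. The ratio of PSMB9 to PSMB6 was 0.0610, 0.147 and 0.0466 in control and 0.219, 0.211 and 0.190 in IGFBP2 overexpression libraries 1, 2 and 3. The groups did not overlap, and the mean log2 ratio was higher by 1.40 (two-sided exact permutation test, p = 0.1, below which 3 libraries against 3 cannot go, and adjusted p = 0.2 over 2 ratios). The ratio of PSMB8 to PSMB5 was 0.446, 0.695 and 0.266 in control and 0.612, 0.456 and 0.629 in IGFBP2 overexpression libraries. These groups overlapped, with a difference in mean log2 ratio of 0.36 (two-sided exact permutation test, p = 0.6, adjusted p = 0.6). Without control replicate 2 the differences were 1.87 for PSMB9 to PSMB6 and 0.69 for PSMB8 to PSMB5. With 0.1 or 5 added to the CPM in place of 1, the difference for PSMB9 to PSMB6 was 1.46 or 1.20. The constitutive subunits themselves had log2 fold changes of 0.06 (PSMB5), 0.17 (PSMB6) and 0.13 (PSMB7), and none of the 3 passed the test. The third inducible subunit, PSMB10, was not analysed here.

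**Figure D3:**
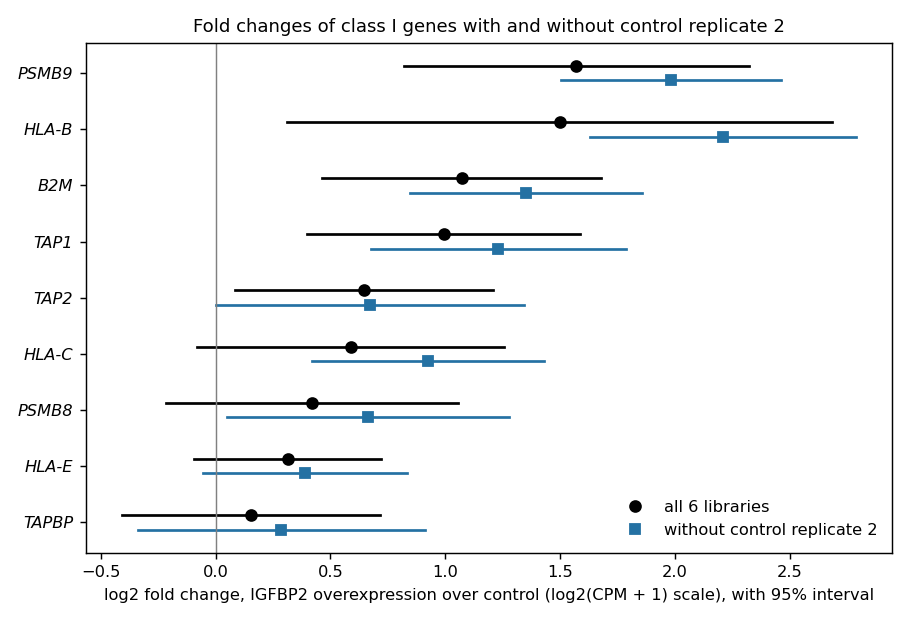
Log2 fold change of each of the 9 genes between IGFBP2 overexpression and control cells (x axis, log2(CPM + 1) scale) with its 95% interval, with all 6 libraries (black circles) and without control replicate 2 (blue squares). With all libraries the estimates run from 0.16 for TAPBP to 1.57 for PSMB9, and without control replicate 2 those of HLA-B and PSMB9 are 2.21 and 1.98.

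By log2 fold change the order was PSMB9 (1.57), HLA-B (1.498), B2M (1.07), TAP1 (0.99), TAP2 (0.65), HLA-C (0.59), PSMB8 (0.42), HLA-E (0.31) and TAPBP (0.16). Each gene's 95% interval overlapped that of its neighbour in this order, and no difference between 2 genes was tested. Among the control libraries, replicate 1 was the lowest of all 6 libraries for 5 of the genes, against 18.1% of all genes, and replicate 3 for 4. The highest library of each gene was an IGFBP2 overexpression library in all 9. Shares of all genes are not given for replicate 3 as the lowest or for these highest libraries. The SD of the log2 values was larger among control than among IGFBP2 overexpression libraries for 9 of 9 genes, against 61.0% of all genes, and for HLA-B it was 1.28 against 0.024.

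Summed over the 9 genes, the level was 866, 1631 and 974 CPM in control and 2057, 1974 and 1880 CPM in IGFBP2 overexpression libraries 1, 2 and 3. Control replicate 2 lay between the other controls and the IGFBP2 overexpression libraries in this sum. Its level relative to the mean of control replicates 1 and 3 was 4.30 for HLA-B, 2.46 for PSMB9 and 2.01 for HLA-C, between 1.64 and 1.77 for PSMB8, TAP1 and B2M, 1.28 for TAPBP, 1.18 for HLA-E and 1.00 for TAP2. The IGFBP2 overexpression mean was above control replicate 2 in 6 of the genes, by 1.05-fold (HLA-B) to 1.71-fold (PSMB9), and below it in HLA-C (0.952), PSMB8 (0.964) and TAPBP (0.934).

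The interferon pathway, which is known to induce these genes, was set beside them. Of 48 listed genes of the interferon pathway and response, 39 were measured and 0 passed the test by limma or limma voom. At an unadjusted p under 0.05 (limma), 6 of the 39 were higher in IGFBP2 overexpression cells, against 6.88% of all genes, and 1 was lower. The median log2 fold change of the 39 genes was -0.15, below that of all genes, and it was 0.36 without control replicate 2. Most of the 39 were highest in that library, so leaving it out raises their fold changes by arithmetic. Without that library 1 of the 39 passed, IFI35, an interferon-induced protein (log2 fold change 1.501, limma adjusted p = 0.0405). The 3 genes with the smallest p were IFNGR1, a chain of the interferon gamma receptor (log2 fold change 0.88, limma adjusted p = 0.132), ISG20, an antiviral exonuclease (1.12), and SOCS3, an inhibitor of cytokine signalling (1.12). Only IFNGR1 and SOCS3 of these 3 had groups that did not overlap.

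The strongly interferon-responsive genes IFI6, MX1 and ISG15, chosen after their values were seen, are given because they differ from the class I genes in their order of libraries, which does not hold for the whole list. IFI6 was at 8.88, 364 and 17.4 CPM in control and at 16.8, 22.3 and 53.9 CPM in IGFBP2 overexpression libraries 1, 2 and 3. MX1 was at 13.1, 213 and 21.4 CPM in control and at 13.6, 10.3 and 36.1 CPM in IGFBP2 overexpression libraries. ISG15 was at 6.44, 100.1 and 17.4 CPM in control and at 26.1, 16.1 and 20.7 CPM in IGFBP2 overexpression libraries. All 3 were highest in control replicate 2, where no class I gene was highest, and their IGFBP2 overexpression libraries overlapped the other control libraries. Over the whole list, 14 of 39 genes had each IGFBP2 overexpression library above control replicates 1 and 3, as did 8 of the 9 class I genes (all but TAPBP) and 15.3% of all genes. IFIT1, a sensor of viral RNA named after its values were seen, was among them, at 1.11, 41.7 and 3.64 CPM in control and at 11.3, 9.68 and 11.8 CPM in IGFBP2 overexpression libraries. IFI35 was another, at 2.44, 14.2 and 3.64 CPM in control and at 10.5, 9.04 and 11.5 CPM in IGFBP2 overexpression libraries. These genes shared with HLA-B a control replicate 2 well above the other controls, but lay highest in that library. The part of the interferon level in the class I values was not tested.

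**Figure D4:**
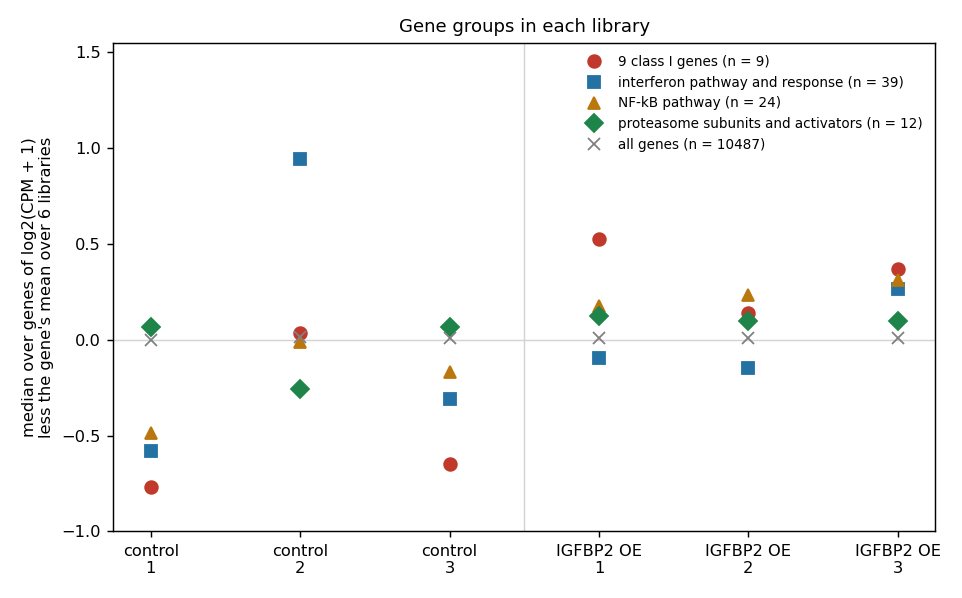
Median over the genes of each group of log2(CPM + 1) less the gene's mean over the 6 libraries (y axis), for each control and IGFBP2 overexpression (OE) library (x axis, replicates 1 to 3 of each). The interferon group is highest in control replicate 2, at 0.94, the 9 class I genes are at -0.77, 0.037 and -0.65 in control and at 0.53, 0.14 and 0.37 in IGFBP2 overexpression libraries, and all genes lie near 0 in each library.

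The transcription factors that act on class I promoters include NLRC5, the class I coactivator, and the RFX, CREB and NF-Y proteins it works with. Of 18 listed, 16 were measured, 0 passed the test by limma or limma voom, 0 had an unadjusted p under 0.05 and the median log2 fold change was -0.057. NLRC5 was at 3.33, 19.7 and 13.7 CPM in control and at 19.9, 19.7 and 23.3 CPM in IGFBP2 overexpression libraries 1, 2 and 3. Its groups overlapped at control replicate 2, and control replicate 1 held the lowest value by far, and the log2 fold change was 1.00 (standard error 0.49, limma adjusted p = 0.434), or 0.32 without control replicate 1. IRF1, an interferon-induced activator of several class I genes, had a log2 fold change of 0.33 (limma adjusted p = 0.666). NFYB (-0.43) and RFXANK (-0.41) had the smallest p of the list, and only RFXANK had groups that did not overlap, with lower values in IGFBP2 overexpression cells.

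NF-kB is the other pathway known to act on class I promoters. Of 33 listed genes, 24 were measured, and 2 passed the test as higher in IGFBP2 overexpression cells, against 0.429% of all genes. Of the 24, 19 had a log2 fold change above 0, against 50.0% of all genes. At an unadjusted p under 0.05, 9 of the 24 were higher, against 6.88% of all genes, and 0 were lower. LTB, which encodes lymphotoxin beta, rose from 10.4, 44.8 and 6.07 CPM to 193, 155 and 304 CPM (log2 fold change 3.76, limma adjusted p = 0.0416). BIRC3, an inhibitor of apoptosis and a feedback regulator of the pathway, rose from 3.55, 10.01 and 5.66 CPM to 24.6, 21.9 and 24.3 CPM (limma adjusted p = 0.0424). Both passed the test without control replicate 2 (limma adjusted p = 0.0055 for LTB and 0.0132 for BIRC3). LTB did not pass without any other single library, with limma adjusted p from 0.0694 to 0.117, and BIRC3 passed without control replicate 1 but not without control replicate 3 or any of the IGFBP2 overexpression libraries (0.0977 to 0.153).

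The median log2 fold change of the 24 NF-kB genes was 0.43, and 0.52 without control replicate 2. Their groups did not overlap in 10 genes, all higher in IGFBP2 overexpression cells, against the 9.43% of all genes given above. CXCL8, a neutrophil chemokine, was at 0.444, 0.834 and 0.404 CPM in control and at 7.02, 2.26 and 12.2 CPM in IGFBP2 overexpression libraries (limma adjusted p = 0.0843), and no fold is given because its control values rest on 1 to 3 reads. Genes are in the table if their mean in 1 condition or more was above 5 CPM. CXCL8 met this only through IGFBP2 overexpression, so its direction was set by that filter, though it is counted among the 10. ICAM1, an adhesion molecule named after its values were seen, was at 5.99, 33.9 and 12.5 CPM in control and at 45.2, 46.5 and 47.6 CPM in IGFBP2 overexpression libraries 1, 2 and 3. As in HLA-B, control replicate 2 was above the other 2 controls and the IGFBP2 overexpression libraries were close together and highest.

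Among 9 other genes with a class I fold, 6 were measured and 1 passed the test as higher, against 0.429% of all genes. At an unadjusted p under 0.05, 4 of the 6 were higher, against 6.88% of all genes, and 1 was lower. MICB, a stress-induced ligand of the NKG2D receptor that needs neither peptide nor B2M, was at 51.9, 34.5 and 36.4 CPM in control and at 124, 126 and 124.5 CPM in IGFBP2 overexpression libraries 1, 2 and 3. Its mean was 40.9 ± 9.58 and 125 ± 0.991 CPM (SD, n = 3 each), and the log2 fold change was 1.61 (standard error 0.21, limma adjusted p = 0.0170). Unlike HLA-B and B2M, MICB was lowest in control replicate 2, and it passed without that library (limma adjusted p = 0.0391). MICB did not pass without control replicate 3 (limma adjusted p = 0.0723), without IGFBP2 overexpression replicate 1 (0.0691) or without replicate 2 (0.0965).

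AZGP1, a secreted glycoprotein with a class I fold that does not bind B2M, had lower values, at 244, 315 and 232 CPM in control and 120, 99.4 and 151 CPM in IGFBP2 overexpression libraries 1, 2 and 3. Its groups did not overlap, and it passed with limma voom (adjusted p = 0.00991) but not with limma (adjusted p = 0.0876). HFE, a regulator of iron uptake that pairs with B2M, had a log2 fold change of 0.72 (limma adjusted p = 0.231). HLA-F, a nonclassical heavy chain chosen after its values were seen, was at 4.22, 22.5 and 6.87 CPM in control and at 35.5, 17.1 and 23.0 CPM in IGFBP2 overexpression libraries, and its groups overlapped at control replicate 2.

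Of 22 listed genes of peptide loading and trimming, 21 were measured and 0 passed by limma or limma voom. At an unadjusted p under 0.05 (limma), 3 of the 21 were higher, against 6.88% of all genes, and 0 were lower. The median log2 fold change was 0.18. CALR, the chaperone that joins tapasin in the loading complex, was at 851, 994 and 1074 CPM in control and at 1382, 1360 and 1429 CPM in IGFBP2 overexpression libraries 1, 2 and 3 (log2 fold change 0.52, limma adjusted p = 0.277). ERAP1, which trims peptides in the endoplasmic reticulum, had a log2 fold change of 0.71 (limma adjusted p = 0.285), and TAPBPL, a peptide editor related to tapasin, of 0.65 (limma adjusted p = 0.341). The groups of CALR and ERAP1 did not overlap, and those of TAPBPL did.

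Of 13 listed proteasome beta subunits and activators, 12 were measured and 0 passed (limma), with 0 at an unadjusted p under 0.05 and 0 with limma voom. Their median log2 fold change was 0.17, with 11 of 12 above 0 as against 50.0% of all genes. The smallest p belonged to PSMB1 (0.55), PSME1 (0.29) and PSME4 (0.26), given as log2 fold changes, and of these 3 only PSME1, a subunit of an interferon-inducible proteasome activator, had groups that did not overlap. The inducible subunit PSMB9, at 1.57, thus lay above each of the other proteasome genes in fold change, and the difference from them was not tested. Of 13 listed genes of class I turnover and surface control, 10 were measured and 0 passed by limma or limma voom, with 0 at an unadjusted p under 0.05. CMTM6 (0.30), SUSD6 (0.38) and SYVN1 (0.40) had the smallest p, given as log2 fold changes. None of 12 listed class II genes was in the table, and they are not analysed here.

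The genes whose pattern over the 6 libraries was most like the mean of the 9 class I genes, each scaled to unit SD, were GID4 (Pearson r = 0.997), CA5B (0.997), ALDH3B1 (0.993), ARHGEF10 (0.990) and ITGA9 (0.990). These correlations over 6 libraries are a description, taken as the highest of all genes, and the libraries share the difference in group. ITGA9, an integrin subunit, was at 0.888, 4.45 and 1.21 CPM in control and at 8.97, 7.75 and 9.53 CPM in IGFBP2 overexpression libraries 1, 2 and 3, and ALDH3B1, an aldehyde dehydrogenase, at 12.4, 27.5 and 13.3 CPM and at 33.5, 28.7 and 37.1 CPM. In both, control replicate 2 lay between the other controls and the IGFBP2 overexpression libraries. ITGA9 and CA5B had control means below 5 CPM, so they are in the table only through IGFBP2 overexpression, which set their direction. None of the 5 genes passed the test, with limma adjusted p from 0.0902 to 0.398.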

How the data were processed

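The members and the gene lists were chosen with earlier results of these data known. Per the labels, total RNA of 3 control and 3 IGFBP2 overexpression biological replicates was made into QuantSeq 3′ libraries from 100 ng, where the paper's methods give 125 ng. The authors demultiplexed the reads with bcl2fastq, trimmed them with bbduk, mapped them to hg38 (Ensembl 93 annotation) by STAR, obtained gene counts from htseq-count (HTSeq 0.9.1 in the submitters' processing notes) and normalized these in edgeR. The authors deposited log2(CPM + 1) values, for genes whose mean in 1 condition or more was above 5 CPM. The strand setting of the counting step is not given in the sources used here.

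CPM values were obtained by undoing the log2 and the pseudocount of 1. Whole reads were recovered from their steps (100% of values within 0.02 of a whole number), and totals cover listed genes only. limma 3.58.1 (R 4.3.3) was fitted without a mean-variance trend to the deposited values of 10487 genes, the single model term being condition, and p-values were adjusted over all genes by the Benjamini-Hochberg method. The fit was tested on simulated data. Ratios were compared by exact permutation tests (Python 3.11.15, scipy 1.17.1), where 3 libraries against 3 cannot go below p = 0.1. Symbols were matched for 10462 genes with GENCODE 44, and promoter windows came from RefSeq. Named genes were the 9 class I genes, IGFBP2, in each list the genes past the threshold and the 3 with the smallest p, a few regulators and proteasome subunits, and the 5 genes most correlated with the class I mean, and other genes named are said to have been chosen after their values were seen. A gene that falls under this rule is left out of the text. Alternatives covered the variance model, scaling, pseudocount, a filter on low values, the adjusted p threshold, leaving out each library and a replicate block. A library left out leaves the other libraries to set the spread.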

Additional observations from a re-analysis of the deposited data

How the results depend on the processing

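The 9 class I genes kept the sign of their log2 fold change in all alternatives, except TAPBP, which was at -0.090 without control replicate 1 (up to 0.29 with other libraries left out). Of the 9, 0 passed the limma threshold with all libraries, against 2 with a mean-variance trend and 2 with limma voom. These 2 were B2M and PSMB9 each time. With a pseudocount of 5, and at an adjusted p under 0.1, 1 passed (PSMB9 both times). Over all genes and both directions, 66 passed with limma, 160 with the trend, 141 with limma voom and 129 with a pseudocount of 5. No count over all genes is given for an adjusted p under 0.1. Leaving out a library gave 0 to 3 of the 9, with 3 only without control replicate 2. The median log2 fold change of the 9 then ranged from 0.49 to 0.92. TAP1, TAP2, HLA-C, HLA-E, PSMB8 and TAPBP passed the threshold of 0.05 under none of these fits. The number of genes whose groups did not overlap was 6 under both other scalings and 8 without control replicate 2, an alternative chosen after seeing the data. Of the wider pathway genes, 3 passed (MICB, LTB and BIRC3), against 5 with limma voom, which adds AZGP1 and ICAM1, and 1 with a pseudocount of 0.1 (MICB). Leaving out a library gave 0 to 5 of them, with 5 without control replicate 2 and 0 without control replicate 3 or IGFBP2 overexpression replicate 1. The difference in log2 ratio ranged from 1.08 to 1.87 for PSMB9 to PSMB6 and from 0.0083 to 0.69 for PSMB8 to PSMB5. The cause was not tested.

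Labels give both groups replicate numbers 1 to 3, but the correlation between libraries of the same number, as deviations from their group means, was 0.17, -0.064 and 0.084, and the numbers were not taken as pairs. With the replicate block, 0 class I genes and 1 wider pathway gene (MICB) passed, and 55 genes in all against 66. Counting error limits PSMB9 and TAP1 most.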
